A study of Homo sapiens with 4 samples.

Results

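The genes described here carry a secreted or membrane protein into the endoplasmic reticulum (ER), attach its first sugar chain and move it between the ER and the Golgi. They are 56 genes chosen by symbol for these roles, with earlier results of these data known, out of 60658 gene identifiers in each file. They fall into 8 groups: the signal recognition particle (SRP) and its receptor, the translocon, the translocon-associated protein (TRAP) complex, signal peptidase, the oligosaccharyltransferase, the COPII coat, the COPI coat, and cargo and retrieval receptors. All 56 were matched to a single identifier, and all 56 passed the filter on low values, a mean of at least 1 FPKM over the libraries, as did 14803 genes in all. FPKM counts the fragments of a gene relative to its length and to the size of the library.

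The RNA sequencing of the study set knockdown of TMEM161A, which encodes a transmembrane protein, by small interfering RNA (siRNA) against a control siRNA. It used HT29 and LIM1215, both human colorectal cancer lines. There were 4 libraries and no replicates: HT29 with a negative control siRNA, HT29 with an siRNA against TMEM161A titled si2, LIM1215 with the control siRNA, and LIM1215 with si2. The 4 groups thus differ in line and siRNA, and knockdown with 1 siRNA per line cannot be told apart from other effects of that siRNA. The dose of siRNA and the time after transfection are not given in the sources used here. With 1 library per group there is no error between replicates and no test within a line, so each comparison below is a difference between 2 libraries. A fit that takes the lines as repeats of each other was not run.

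As background, SRP binds the signal sequence of a nascent protein at the ribosome and docks at its receptor on the ER, and the Sec61 channel then lets the chain through the membrane. Signal peptidase cuts off the signal sequence, and the oligosaccharyltransferase transfers a preassembled glycan to asparagine residues. COPII vesicles carry cargo from the ER towards the Golgi, COPI vesicles return escaped ER proteins, and KDEL receptors select those that end in the KDEL retrieval signal. Many of these genes are induced when unfolded proteins load the ER, through the transcription factors XBP1 and ATF6, and secretory cells of the colon express them strongly.

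TMEM161A was at 42.6 FPKM in the HT29 control and 4.64 in the HT29 knockdown library, and at 39.1 and 7.61 in LIM1215, so it was lower in both libraries labelled as knockdown. From the steps of low values, 1 FPKM was estimated at 18.1 to 21.54 fragments for each kilobase, and the lowest value among the 56 genes rested on about 228 fragments. Of 9 markers of colon epithelium, 4 were under 1 FPKM in both HT29 libraries and none in the LIM1215 libraries. In the HT29 control CDX1 was listed at 0, VIL1 at 0.0397, KRT20 at 0.306 and LGALS4 at 0.607 FPKM, against 88.4, 192, 67.8 and 316 in the LIM1215 control. EPCAM, KRT8, KRT18, CDX2 and CDH1 were above 8 FPKM in all libraries. The epithelial markers summed to 2428 and 2690 FPKM in the HT29 libraries (control, then knockdown) and to 7521 and 9312 in the LIM1215 libraries, and the part of this difference in the results was not tested. HT29 cells are known to express such markers, so their near absence is unusual for that line, and its identity was not tested here. HT29 below means the libraries with that label, and the LIM1215 values stand without them. Markers of leukocytes summed to at most 0.34 FPKM, those of endothelium to at most 0.601, and those of fibroblasts to between 6.03 and 18.2, mostly COL1A1.

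Most of the 56 genes were lower with the TMEM161A siRNA in both lines, by modest amounts. The log2 ratio of FPKM + 1, knockdown over control, was below 0 for 47 of them in HT29 and for 42 in LIM1215, where 44.4% and 46.4% of all genes tested were below 0. Medians on this scale were −0.31 for HT29 and −0.25 for LIM1215, against 0.04 and 0.02 over all genes tested. In both lines 38 genes were lower, 5 were higher and 13 went in opposite directions, while 28% of all genes tested were lower in both, 36% higher in both and 33.8% opposite. Summed over the 56 genes, FPKM came to 5817 and 4904 in the HT29 control and knockdown libraries, a level of 84.3%, and to 6493 and 5560 in LIM1215, a level of 85.6%. On this scale a fold change is slightly understated, since 1 is added to each FPKM.

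Few of the genes passed 2-fold. SEC63 was the only one at least 2-fold lower in HT29, where 1.95% of all genes tested and 1.26% of protein-coding genes were. SEC24D was the only one in LIM1215, where the shares were 1.78% and 0.887%. None was 2-fold higher in either line, against 1.85% and 1.68% of all genes tested. At 1.5-fold, 8 genes were lower in HT29 and 8 in LIM1215, where the shares of all genes tested were 6.91% and 6.18%, and those of protein-coding genes 6.04% and 4.91%. These were SEC63, TRAM1, SEC11C, STT3B, SEC24D, SEC31A, LMAN1 and KDELR3 in HT29, and SRP9, TRAM1, SPCS3, SEC11C, SEC24D, COPG1, LMAN1 and KDELR3 in LIM1215. The 5 that were 1.5-fold lower in both lines were TRAM1, SEC11C, SEC24D, LMAN1 and KDELR3, a share of 5 in 56 beside 2.14% of all genes tested and 1.93% of protein-coding genes. With a pseudocount of 5 in place of 1, 3 genes remained past 1.5-fold in both lines. SRPRA was the only gene 1.5-fold higher, in LIM1215, where 6.63% of all genes tested were, and none was in HT29, against 7.87%.

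**Figure D1:**
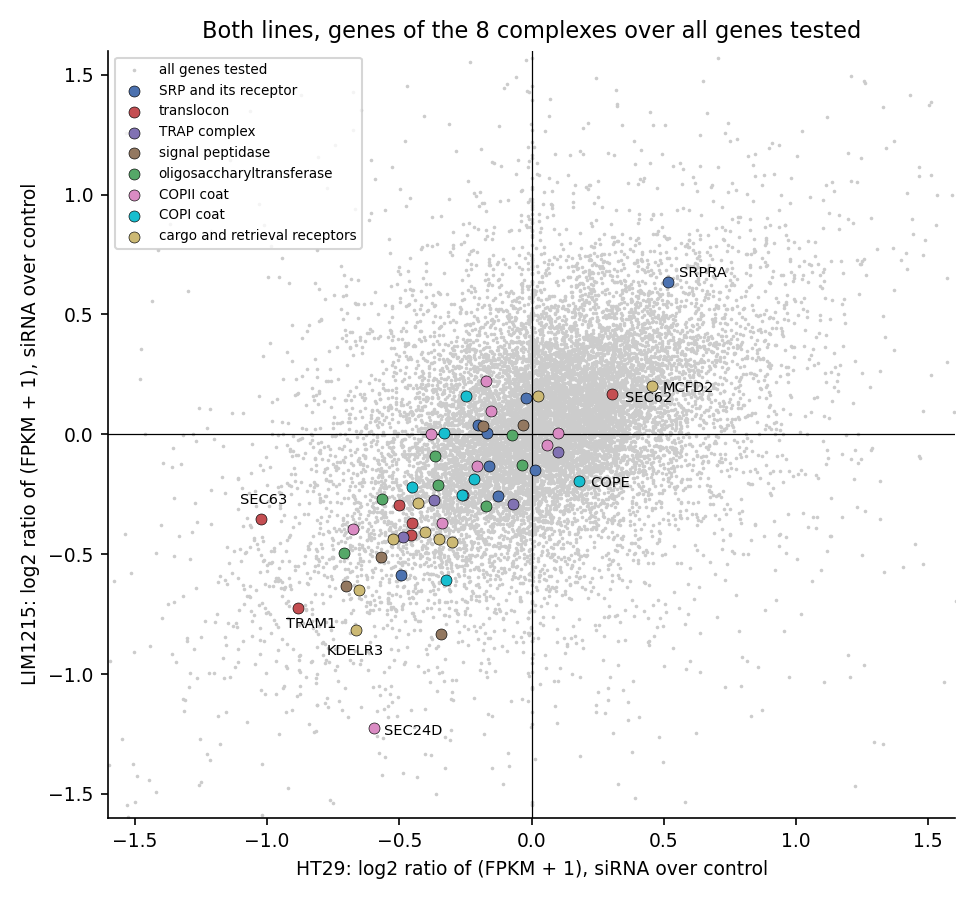
Each point is a gene, with the log2 ratio of FPKM + 1, TMEM161A siRNA over control siRNA, in HT29 on the x axis and in LIM1215 on the y axis. Colours mark the 8 groups and grey points all 14803 genes tested, of which 306 lie beyond the axes at 1.6. The coloured points lie mostly at the lower left, where 38 of the 56 genes were lower in both lines, and SRPRA, MCFD2 and SEC62 lie in the upper right.

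Pearson's r between the log2 ratios of HT29 and LIM1215 was 0.73 across the 56 genes and Spearman's rho 0.77, against 0.46 and 0.45 across the 12295 protein-coding genes tested. The lines share no library, but both received the same siRNAs. Genes are not independent replicates, so these values describe the libraries only. The 56 genes had means of at least 9.54 FPKM, against at least 1 for the protein-coding genes tested. The sets were not matched for level.

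The promoters of these genes are shown because the unfolded protein response acts on many of them through short DNA elements. RefSeq windows on GRCh38.p14, from 250 bases before to 50 bases after a gene's start, were found for 48 of the 56 genes, all but SRPRA, TRAM1, SPCS1, RPN1, STT3B, SEC24D, TMED9 and KDELR2. The letters TGACGTG, the core of the unfolded protein response element, were searched on both strands. They occurred in a window of 13 of the 48 genes, or 27.1%, against 3.35% of the 10512 tested genes with a window and 1.97% of all 35116 windows. The longer form TGACGTGG, which holds the core, occurred in 10 of the 48 genes, or 20.8%, against 1.23% of the tested genes. The ER stress response element occurred in none of the 48 genes and in 0.152% of the tested genes, and its second form in none, against 0.133%. The E box CACGTG, which can overlap the core in part, was in 7 of the 48 genes (14.6%), against 12.5% of the tested genes. The cAMP response element was in none of the 48 genes, against 3.86% of the tested genes. The core of the amino acid response element was also in none, against 0.713%. Among the other genes of the same route, listed further below, 7 of the 94 with a window held TGACGTG, or 7.45%. A match is a description of the sequence and not a site shown to be bound.

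The core with its flanks, at most 29 bases, is printed for the 9 genes with a match wholly before the gene start within a RefSeq window. Each runs 5′ to 3′ on the strand of the gene, with the core or its reverse complement CACGTCA in capitals. COPB1 lies on the minus strand (chr11:14499841-14499869), as do COPB2 (chr3:139389825-139389853), SEC13 (chr3:10321238-10321266) and SSR3 (chr3:156554148-156554176). KDELR3 lies on the plus strand (chr22:38468040-38468068), as do SEC24A (chr5:134648595-134648623), SEC62 (chr3:169966780-169966806), SRP19 (chr5:112861165-112861193) and SSR4 (chrX:153794529-153794557). A gene can have several starts. In 4 of the 9 (COPB1, SEC62, SSR3 and SSR4) the core lies inside the gene as GENCODE bounds it, before the start of a shorter transcript. None of the 9 stretches overlaps an exon of a canonical coding transcript, and 6 overlap an exon of some other transcript.
SRP19: agtcttcatgcCACGTCAgagactagaga
SEC62: cctcctcgctcCACGTCAgagggaacc
SSR3: ctgataacagcCACGTCAgcaaggaaact
SSR4: cagggaggggcCACGTCAgtgctgccaga
SEC13: ctctggtctcgCACGTCActggaggatag
SEC24A: gtgagagtcggTGACGTGgcggcgaggcc
COPB1: ccacccccttcCACGTCAgccaaggactc
COPB2: ctcagcggcacCACGTCAcggcccttagt
KDELR3: gccgccctggcCACGTCAccgcccggcca

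Counted from the gene start within its window, the core began 16 bases before that start in SEC62, 40 in SSR3 and 45 in KDELR3. It began 47 bases before in COPB1, 111 in SRP19, 128 in SSR4 and 179 in SEC24A. SEC13 and COPB2 have windows for more than 1 start, from which it began at 143 or 214 and at 162 or 195 bases. SSR3 also has more than 1 window, and the core was found only in the window that lies inside the gene. In COPA, COPE, SEC23A and SEC61A1, and in a second match in COPB2, the core overlapped or followed the start, and these stretches are not printed. Where a window was found, medians are given for genes with and without the core in any window, and whether they differ was not tested. The 13 genes with the core had median log2 ratios of −0.26 (HT29) and −0.22 (LIM1215), and the 35 genes without it −0.32 and −0.21. The 8 genes with no window had lower medians, −0.35 (HT29) and −0.43 (LIM1215). They include TRAM1, STT3B and SEC24D, which were lower in both lines, but also SRPRA, which was higher. Whether these 8 genes hold the core was not tested. Among genes with the core, log2 ratios lay between −0.67 and 0.31 in HT29 and between −0.82 and 0.17 in LIM1215, with KDELR3 lowest and SEC62 highest in both lines.

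**Figure D2:**
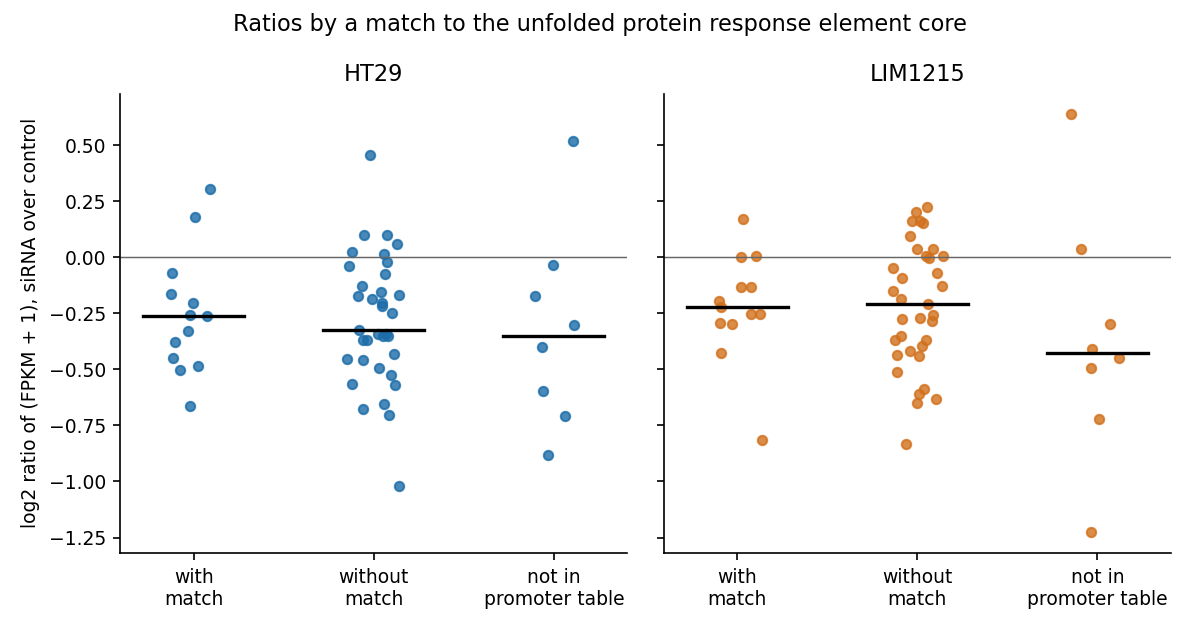
Each point is 1 of the 56 genes, with its log2 ratio of FPKM + 1, TMEM161A siRNA over control siRNA, on the y axis for HT29 (left) and LIM1215 (right), and black bars mark medians. The 13 genes with a match to the element core overlap the 35 genes without one over most of the range, and 8 genes are not in the promoter table. Horizontal spread within a column carries no value.

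SRP and its receptor had the medians nearest to 0. Over these 8 genes the median was −0.14 (HT29) and −0.06 (LIM1215) on the log2 scale, with 6 and 4 genes below 0. SRP9, which with SRP14 forms the part of SRP that pauses translation, was at 112 FPKM in the HT29 control and 79.6 in the knockdown library, and at 204 and 136 in LIM1215. Its log2 ratios were −0.49 and −0.59, the lowest of the group in both lines. SRP14 itself was at 289 and 285 FPKM in HT29 and at 304 and 338 in LIM1215 (log2 ratios −0.02 and 0.15), so the partners differed in direction in LIM1215. A pseudogene named after SRP9 reached 8.86 FPKM, the highest of any pseudogene named after one of the 56 genes, and how the authors assigned shared fragments is not given in the sources used here.

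SRPRA, the receptor subunit that binds SRP, was the gene with the highest log2 ratio of all 56 in both lines. It was at 43.6 and 62.8 FPKM in HT29 and at 46.3 and 72.5 in LIM1215, for control and knockdown in that order. The log2 ratios were 0.52 and 0.64, and SRPRA in the HT29 knockdown was at 144% of control (137% to 152%, an interval at the 95% level that covers counting error alone). In LIM1215 it was 157% (149% to 165%). SRPRB, its membrane anchor, was at 59.8 and 60.3 FPKM in HT29 and at 91.5 and 82.3 in LIM1215 (0.01 and −0.15). The SRPRB value in HT29 changed sign under 3 alternative scalings. SRPRA overlaps FAM118B and FOXRED1, both on the other strand, with log2 ratios of 0.37 and −0.08 in HT29 and of 0.37 and −0.44 in LIM1215. Whether counting used the strand is not given, so the part of these neighbours in the SRPRA value was not tested.

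Of the 6 translocon genes, 5 were lower in both lines, with group medians of −0.48 in HT29 and −0.36 in LIM1215. The 3 subunits of the Sec61 channel moved together. SEC61A1, which forms the pore, was at 136 and 95.4 FPKM in HT29 and at 143 and 117 in LIM1215 (log2 ratios −0.50 and −0.30). The small subunits SEC61B and SEC61G had log2 ratios of −0.46 and −0.45 in HT29 and of −0.42 and −0.37 in LIM1215. TRAM1, a membrane protein next to the channel that helps signal sequences insert, was lower by more. TRAM1 was at 91.6 and 49.2 FPKM in HT29, 53.8% of control (51.4% to 56.2%), and at 74.7 and 44.9 in LIM1215, 60.1% of control (57.1% to 63.2%). Its log2 ratios of −0.88 and −0.72 had 2.74% and 3.94% of all genes tested below them.

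SEC62 and SEC63 work together at the channel in translocation after translation, and SEC63 recruits the chaperone BiP. SEC63 was at 34.4 and 16.4 FPKM in HT29, a log2 ratio of −1.02 and 47.8% of control (45.4% to 50.3%), and at 37.2 and 28.9 in LIM1215, −0.35 and 77.8% (74.4% to 81.3%). With a pseudocount of 5 it no longer passed 2-fold in HT29. SEC62 was at 36.0 and 44.7 FPKM in HT29 and at 32.0 and 36.2 in LIM1215 (0.31 and 0.17), higher in both lines. Within a library the ratio of SEC63 to SEC62 was 0.956 and 0.368 in the HT29 control and knockdown libraries, and 1.16 and 0.799 in LIM1215. Such a ratio does not depend on the scaling of the library.

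**Figure D3:**
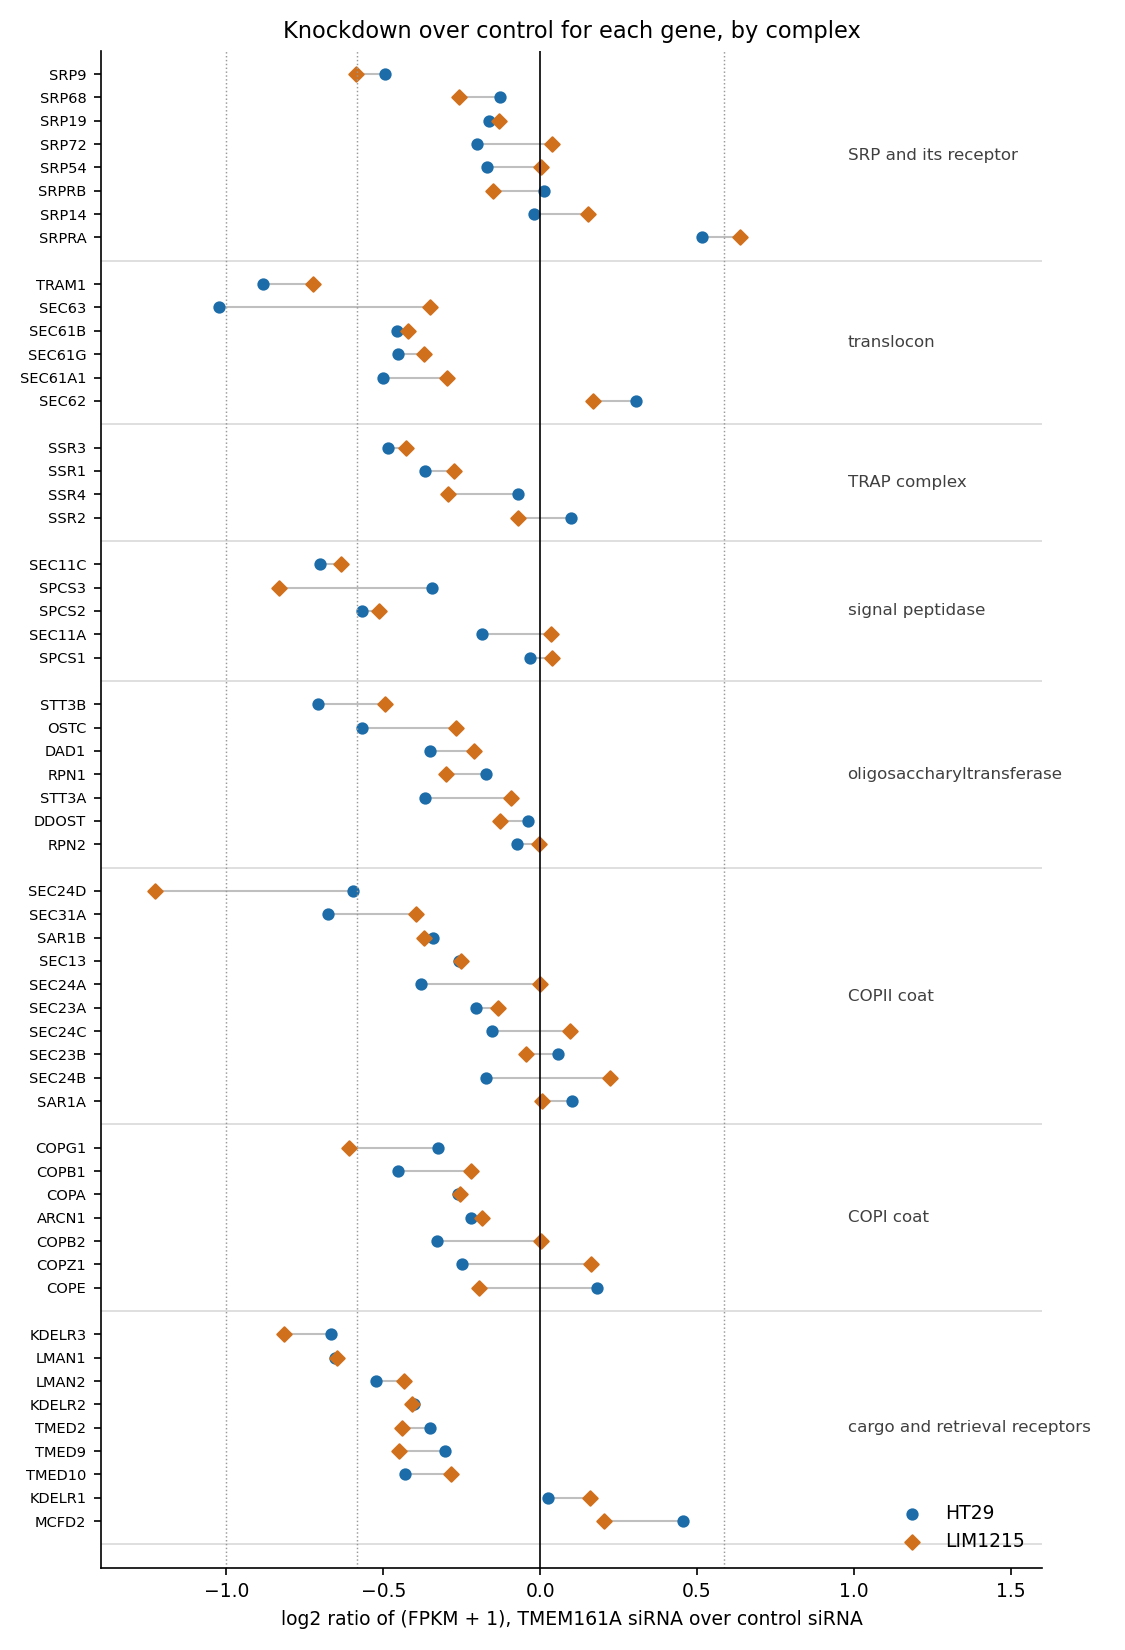
Log2 ratio of FPKM + 1, TMEM161A siRNA over control siRNA, on the x axis for each of the 56 genes, grouped by complex and ordered by mean within it. Circles stand for HT29 and diamonds for LIM1215, 1 library per group, and dotted lines mark 2-fold lower and 1.5-fold lower and higher. The 7 oligosaccharyltransferase genes lie left of 0 in both lines, apart from RPN2 in LIM1215, which lies at 0 and changes sign with scaling by the upper quartile. SRPRA, SEC62 and MCFD2 lie to the right in both lines.

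The TRAP complex, which assists the channel with some signal sequences, differed among its subunits. SSR3 was at 118 and 83.8 FPKM in HT29 and at 140.4 and 104 in LIM1215, with log2 ratios of −0.49 and −0.43, the lowest of the 4 subunits in both lines. SSR1 had log2 ratios of −0.37 and −0.27, and SSR4 of −0.07 and −0.29. SSR2 was at 152 and 163 FPKM in HT29 and at 203 and 193 in LIM1215 (0.10 and −0.07), the only subunit above 0 in a line. The medians were −0.22 in HT29 and −0.28 in LIM1215.

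Signal peptidase has alternative catalytic subunits, SEC11A and SEC11C, and these differed. SEC11C was at 90.2 and 55.1 FPKM in HT29 and at 82.8 and 53.0 in LIM1215, with log2 ratios of −0.70 and −0.63. SEC11A was at 116 and 102 FPKM in HT29 and at 101 and 104 in LIM1215, with log2 ratios of −0.19 and 0.03. The ratio of SEC11C to SEC11A within a library was 0.779 and 0.817 in the control and 0.542 and 0.511 in the knockdown libraries of HT29 and LIM1215. Of the other subunits, SPCS2 had log2 ratios of −0.57 and −0.51, and the accessory subunit SPCS3 had −0.34 in HT29 and −0.83 in LIM1215. SPCS1 was at 97.7% of control in HT29 (94.6% to 101%) and at 103% in LIM1215 (99.6% to 106%), with log2 ratios of −0.03 and 0.04. Group medians were −0.34 and −0.51.

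All 7 oligosaccharyltransferase genes were below 0 in both lines, with medians of −0.35 in HT29 and −0.21 in LIM1215, except that RPN2 in LIM1215 was at 0.00 and changed sign with scaling by the upper quartile. The catalytic subunits are STT3A, which acts at the translocon, and STT3B, which also acts after translocation. STT3B was at 111 and 67.5 FPKM in HT29, 60.8% of control (58.8% to 62.9%), and at 143 and 101 in LIM1215, 70.8% (68.7% to 72.9%). STT3A was at 125 and 97.1 FPKM in HT29, 77.4% (75.2% to 79.5%), and at 163 and 153 in LIM1215, 93.7% (91.5% to 96.1%). STT3B was thus lower than STT3A by more in both lines, and their ratio went from 0.884 to 0.695 and from 0.874 to 0.660. The accessory subunits OSTC and DAD1 had log2 ratios of −0.57 and −0.35 in HT29 and of −0.27 and −0.21 in LIM1215. RPN1 and DDOST had −0.17 and −0.04 in HT29 and −0.30 and −0.13 in LIM1215. RPN2 was at 179 and 170.0 FPKM in HT29 and at 180.0 and 179.6 in LIM1215 (−0.07 and 0.00), the smallest difference of the group in LIM1215. STT3A overlaps CHEK1 on the same strand, which had log2 ratios of −0.43 and −0.19.

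The COPII coat had medians of −0.23 in HT29 and −0.09 in LIM1215 over 10 genes, and 1 cargo adaptor stood out. SEC24D, which packs cargo into the vesicle, was at 25.2 and 16.3 FPKM in HT29, 64.8% of control (60.4% to 69.4%), and at 28.9 and 11.8 in LIM1215, 40.7% (37.6% to 44.1%). Its log2 ratios were −0.60 and −1.23, and the latter was the lowest of all 56 genes in LIM1215, with 1.07% of all genes tested below it. The other SEC24 genes differed less from control. SEC24A was at 10.1 and 7.57 FPKM in HT29 and 10.2 in both LIM1215 libraries (−0.38 and 0.00). SEC24B was at 12.8 and 11.3 in HT29 and at 9.65 and 11.4 in LIM1215 (−0.17 and 0.22). SEC24C, the most abundant, was at 39.3 and 35.2 in HT29 and at 38.7 and 41.4 in LIM1215 (−0.15 and 0.10). As a share of the summed FPKM of the 4 SEC24 genes, SEC24D made up 28.8% and 23.2% of the HT29 control and knockdown libraries, and 33.0% and 15.7% of those of LIM1215. SEC24A overlaps SAR1B on the other strand.

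Among the rest of the COPII coat, SEC31A of the outer cage was lower in both lines, with log2 ratios of −0.68 and −0.40, and its partner SEC13 had −0.26 and −0.25. SEC31A overlaps the antisense-named THAP9-AS1, annotated on the same strand, which had −0.41 and −0.14. SEC23A and SEC23B, alternative partners of SEC24, were close to control. SEC23A was at 80.5 and 69.7 FPKM in HT29 and at 109 and 98.9 in LIM1215 (−0.21 and −0.13), and SEC23B at 65.0 and 67.7 in HT29 and at 76.3 and 73.9 in LIM1215 (0.06 and −0.05, the HT29 value changing sign under 2 alternative scalings). The GTPases that start the coat also differed from each other. SAR1B was at 35.4 and 27.7 FPKM in HT29 and at 66.0 and 50.9 in LIM1215 (−0.34 and −0.37), whereas SAR1A was at 65.7 and 70.6 in HT29 and at 64.1 and 64.4 in LIM1215 (0.10 and 0.01).

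The COPI coat had medians of −0.26 in HT29 and −0.19 in LIM1215 over 7 genes. COPG1, the gamma subunit, was at 112 and 89.0 FPKM in HT29 and at 114 and 74.5 in LIM1215 (log2 ratios −0.32 and −0.61), the lowest mean of the group. COPB1 had −0.45 and −0.22, COPA −0.26 and −0.25, and ARCN1 −0.22 and −0.19, all lower in both lines. COPE was at 157 and 178 FPKM in HT29 and at 217 and 189.6 in LIM1215, with log2 ratios of 0.18 and −0.19, and COPZ1 had −0.25 and 0.16, so these subunits went in opposite directions. COPB2 had −0.33 in HT29 and was at 100.2% of control in LIM1215 (96.3% to 104%).

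Of the 9 cargo and retrieval receptors, 7 were lower in both lines, with medians of −0.40 in HT29 and −0.43 in LIM1215. LMAN1 is a lectin that carries glycoproteins such as coagulation factors V and VIII out of the ER, and MCFD2 is its soluble partner in that task. LMAN1 was at 42.9 and 26.9 FPKM in HT29 and at 58.0 and 36.6 in LIM1215, with log2 ratios of −0.65 in each line. MCFD2 was at 44.2 and 61.0 in HT29 and at 43.5 and 50.2 in LIM1215, with log2 ratios of 0.46 and 0.20. The ratio of LMAN1 to MCFD2 was 0.970 and 0.441 in HT29, control first, and 1.33 and 0.729 in LIM1215. MCFD2 overlaps TTC7A on the other strand, which had log2 ratios of −0.03 and −0.61. The lectin LMAN2 had −0.52 and −0.43, and the p24 proteins TMED2, TMED9 and TMED10 lay between −0.43 and −0.30 in HT29 and between −0.45 and −0.29 in LIM1215.

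The KDEL receptors were ordered in the same way in both lines. KDELR3 was at 30.7 and 19.0 FPKM in HT29, 61.8% of control (55.8% to 68.5%), and at 14.0 and 7.54 in LIM1215, 53.7% (45.4% to 63.4%). KDELR2 was at 101 and 76.0 in HT29 and at 112 and 84.1 in LIM1215, 75.4% and 75.2% of control. KDELR1, the most abundant, was at 153 and 156 in HT29 and at 189.9 and 212 in LIM1215, 102% (97.6% to 106%) and 112% (108% to 116%). The log2 ratios were −0.67 and −0.82 for KDELR3, −0.40 and −0.41 for KDELR2 and 0.03 and 0.16 for KDELR1, whose HT29 value changed sign under 3 alternative scalings. KDELR1 made up 53.8% of the summed FPKM of the 3 receptors in the HT29 control and 62.2% in the knockdown library, and 60.1% and 69.8% in LIM1215. KDELR3 lies over DDX17 on the other strand, which was at 82.9 to 107 FPKM in the knockdown libraries and had log2 ratios of −0.03 and 0.37.

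**Figure D4:**
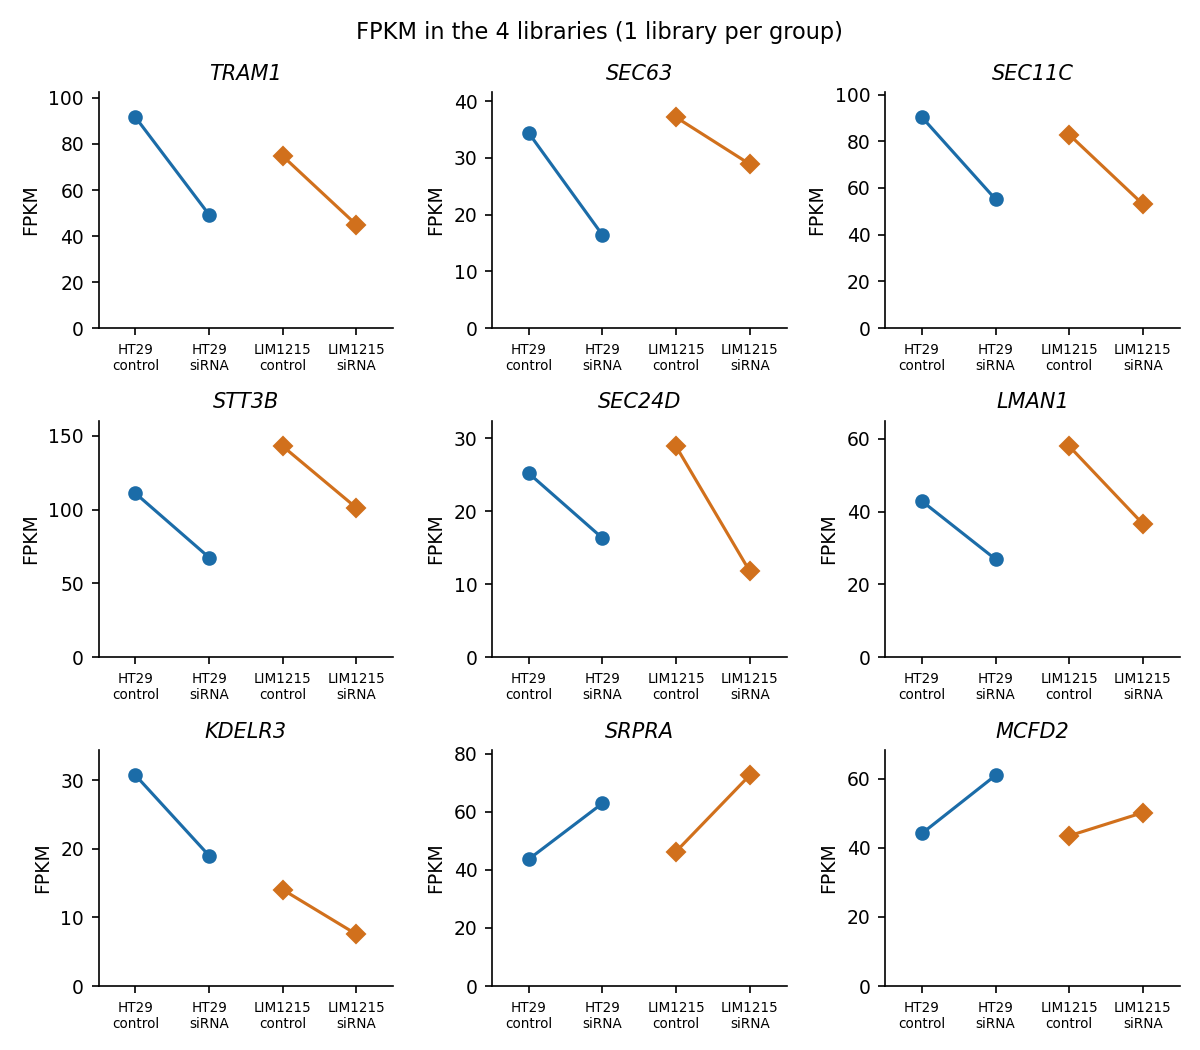
FPKM on the y axis, from 0, in the 4 libraries for 9 genes, with circles for HT29 and diamonds for LIM1215 and a line from control siRNA to TMEM161A siRNA. TRAM1, SEC63, SEC11C, STT3B, SEC24D, LMAN1 and KDELR3 were lower in the knockdown library of each line, and SRPRA and MCFD2 were higher. Each point is 1 library, so no error is drawn.

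The plot of partner genes collects the ratios within libraries, which differed between control and knockdown in the same direction in HT29 and LIM1215 for each pair drawn. Each pair but SRPRA and SRPRB was written with the gene that was lower by more on top, so the direction shared among pairs follows from how they were written. In both lines the knockdown library held less SEC11C per SEC11A, STT3B per STT3A, SAR1B per SAR1A, SEC24D per SEC24C, and KDELR2 or KDELR3 per KDELR1 than the control. The ratio of SAR1B to SAR1A was 0.539 and 0.393 in HT29 and 1.03 and 0.791 in LIM1215, control first. The ratio of KDELR3 to KDELR1 went from 0.200 to 0.122 and from 0.0739 to 0.0355. The ratio of SRPRA to SRPRB was 0.730 and 1.04 in HT29 and 0.506 and 0.881 in LIM1215.

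**Figure D5:**
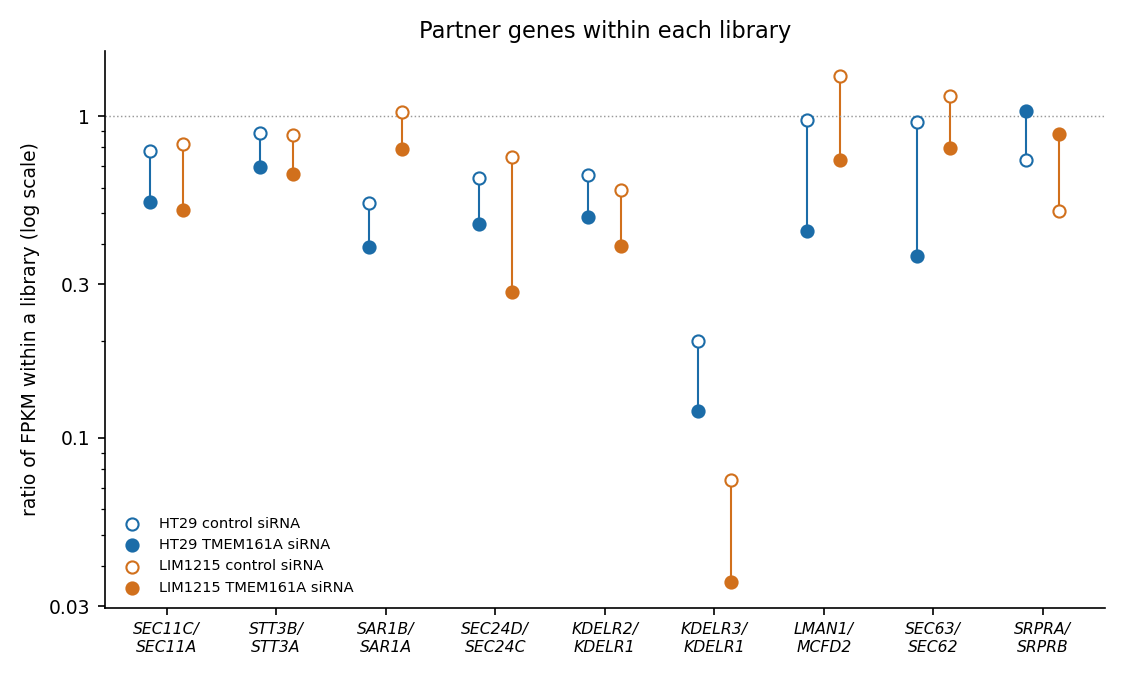
Ratio of the FPKM of a gene to that of its partner within each library, on a log axis, with open symbols for control siRNA and filled symbols for TMEM161A siRNA, blue for HT29 and orange for LIM1215. For each of the 9 pairs the filled symbol lies on the same side of the open one in both lines, and which side depends on the gene written first.

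The lines were also compared without knockdown, from their control libraries alone. The median log2 ratio of LIM1215 over HT29 was 0.08 over the 56 genes and 0.05 over all genes tested. It was −0.10 when FPKM were rescaled to a common sum or to the upper quartile, scalings that moved the median of all genes by −0.16. KDELR3 was the only gene 2-fold apart, 2.19-fold higher in the HT29 control, where 7.42% of all genes tested were at least 2-fold lower in LIM1215 and 12% higher. At 1.5-fold, SAR1B (1.87-fold), SRP9 (1.81-fold), SSR4 (1.76-fold) and SRPRB (1.53-fold) were higher in LIM1215, 4 of 56 genes beside 21.8% of all genes tested. The 4 TRAP subunits had a median log2 ratio of 0.44, the highest of the 8 groups, before any such rescaling.

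Other genes of the same route were read from 7 lists, 105 of whose 108 genes passed the filter. They had median log2 ratios of −0.12 (HT29) and −0.07 (LIM1215), with 69 and 67 genes below 0. At 2-fold, 6 of the 105 were lower in HT29 and 1 in LIM1215, beside 1.95% and 1.78% of all genes tested, and none was higher, beside 1.85% and 1.68%. The assembly of the dolichol-linked glycan, the donor for the oligosaccharyltransferase, had medians of −0.15 and −0.07 over 28 genes, of which 7 and 5 were 1.5-fold lower, beside 6.91% and 6.18% of all genes tested. None was 1.5-fold higher, beside 7.87% and 6.63%. NUS1, a subunit of the enzyme that makes the dolichol chain, was at 14.1 and 4.87 FPKM in HT29 and at 11.6 and 5.67 in LIM1215 (log2 ratios −1.36 and −0.91). MPDU1, which is needed for the use of dolichol-linked sugars, had 0.19 in each line, the highest mean of that list.

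MAGT1, an oxidoreductase subunit specific to the STT3B form of the oligosaccharyltransferase, was at 33.0 and 15.8 FPKM in HT29 and at 31.3 and 21.4 in LIM1215 (−1.02 and −0.53). KRTCAP2, specific to the STT3A form, was at 116 and 142 in HT29 and at 176 and 173 in LIM1215 (0.29 and −0.02). These are the lowest and highest means of the remaining oligosaccharyltransferase subunits, of which 4 of 5 passed the filter. The medians of these 4 were 0.17 in HT29, where KRTCAP2, TMEM258 and OST4 were above 0, and −0.19 in LIM1215, where all 4 were below 0. TMEM258 had log2 ratios of 0.17 and −0.36 and OST4 of 0.17 and −0.01, both named after their values were seen. MAGT1 and STT3B were lower in both lines, but so were STT3A (−0.37 and −0.09) and OSTC (−0.57 and −0.27). TUSC3, the subunit that did not pass the filter, was at 0.988 and 1.18 FPKM in HT29 and at 0.734 and 0.246 in LIM1215. Whether the STT3A and STT3B forms differed was not tested.

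In ER glycan trimming, UGGT1, which tags misfolded glycoproteins for another folding round, had log2 ratios of −0.54 and −0.39, and PRKCSH of 0.20 and 0.14, with medians of −0.11 and −0.07 over 6 genes. The 18 other membrane insertion factors had medians of −0.04 and 0.00. EMC2 of the ER membrane protein complex had −1.08 in HT29 and −0.35 in LIM1215, and EMC10 of the same complex 0.60 and 0.31. The 23 other COPII and ER exit genes that passed had medians of −0.28 and −0.12, with 18 below 0 in each line. Of these, TMED7, a p24 cargo receptor, had −0.70 and −0.60, and ERGIC3 had 0.17 and 0.31. The 15 other COPI and retrograde genes that passed had medians of −0.04 and 0.00, with ARFGAP3 lowest (−0.39 and −0.69) and USE1 highest (0.51 and 0.31).

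Regulators of the unfolded protein response were listed because they control many of these genes. Of 11, 6 were below 0 in HT29 and 8 in LIM1215, with medians of −0.14 and −0.28. CREB3L2, an ER-anchored transcription factor known to act on COPII genes such as SEC23A, was 2-fold lower in both lines, as were 0.466% of all genes tested. CREB3L2 was at 19.5 and 9.11 FPKM in HT29 and at 15.3 and 5.29 in LIM1215 (−1.02 and −1.37). XBP1 was at 91.4 and 60.1 in HT29 and at 175 and 141 in LIM1215 (−0.60 and −0.31). ATF6 was at 9.26 and 10.5 in HT29 and at 9.35 and 14.0 in LIM1215 (0.16 and 0.53). MBTPS1, the protease that makes the first cut in ATF6, was named after its values were seen. It had the highest log2 ratios of the list, 0.78 and 0.91. MBTPS1 was at 35.6 and 61.8 FPKM in HT29 and at 23.6 and 45.1 in LIM1215. Also named after their values were seen, MBTPS2 had −0.67 and −0.35, ATF6B −0.25 and −0.28 and EIF2AK3 −1.03 and −0.86. Of the 11 regulators, 5 were above 0 in HT29 and 3 in LIM1215. These are transcript levels per gene, and the spliced form of XBP1 was not measured here.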

How the data were processed

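RNA was measured in 4 libraries, 1 per line and siRNA, grouped by the sample titles. The library kit was a stranded one for mRNA, per the labels' protocols. The values are FPKM per gene deposited by the authors. HISAT2 2.1.0, SAMtools 1.20, Cufflinks 2.2.1, Cuffdiff and GRCh38 are named, per the submitters' processing notes. Their roles, the annotation, the filters and the strand setting are not given in the sources used here.

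Symbols, positions and canonical transcripts came from GENCODE release 44 (GRCh38), which named 56550 of 60658 identifiers. Ratios were taken as log2 of FPKM + 1 in the knockdown over the control library, for genes with a mean of at least 1 FPKM, called at 2-fold or 1.5-fold without a p-value. Fragments behind an FPKM were estimated from low values of genes with 1 transcript of at least 500 bases, of which 78% to 80.1% lay within 0.03 of a whole number. Counting intervals (95%, exact Clopper-Pearson) used the canonical transcript. They cover counting error only, and are too narrow where shorter transcripts dominate. Of the 56 genes, 18 overlap another gene of at least 5 FPKM. Python 3.11.15, scipy 1.17.1 and pandas 2.3.3 were used. The estimate of fragments was tested on simulated counts, the calls on real values with known fold changes put in, and the letter search on a made-up sequence.

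The 56 genes and the other lists were chosen with earlier results of these data known. Full values are given for genes past 2-fold in a line, the lowest and highest mean log2 ratio of each group, and paralog sets. Of other lists, genes past 2-fold in both lines are named, otherwise the lowest and highest, with XBP1, ATF6 and CREB3L2 always. Alternatives were other pseudocounts, filters, scalings and thresholds, and the mean over a list. The 1.5-fold and below-0 counts, the promoter letters and the partner ratios were added after the values were seen.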

Additional observations from a re-analysis of the deposited data

Results flagged for a closer look

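The lines had log2 ratios of opposite sign, knockdown over control, for 13 of the 56 genes, beside 33.8% of all genes tested. With 1 library per group this difference between the lines was not tested. The difference, LIM1215 minus HT29, was 0.41 for COPZ1, 0.40 for SEC24B, 0.33 for COPB2, 0.25 for SEC24C, 0.24 for SRP72, 0.22 for SEC11A, 0.17 for SRP14, 0.17 for SRP54 and 0.072 for SPCS1. It was −0.38 for COPE, −0.17 for SSR2, −0.16 for SRPRB and −0.10 for SEC23B. For 5 of the 13, SSR2, SEC24B, SEC24C, COPE and COPZ1, the counting interval of each line lay wholly to its own side of no change. For the other 8, at least 1 interval included no change. The intervals take the scaling of the deposited values as given. Those of SSR2 came close to no change, at 102% to 113% of control in HT29 and 90.7% to 99.7% in LIM1215.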

How the results depend on the processing

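Each group had 1 library, so none could be left out, and a fit with the line as a block was not run. With a pseudocount of 5, the count of genes at least 2-fold lower in HT29 went from 1 to 0, and the count at least 1.5-fold lower in both lines from 5 to 3. A larger pseudocount shrinks every ratio. With a 1.5-fold in place of a 2-fold threshold, 8 genes were lower in each line and 1 was higher in LIM1215. The HT29 median of −0.31 was −0.39 with all libraries set to the same FPKM sum and −0.38 with scaling by the upper quartile. The median between the controls was 0.08 and became −0.10 with both. Every other count over the 56 genes stayed within 1.5 times its main value, and the medians of both knockdown comparisons stayed below 0 under every alternative run. All 128 values of the medians by group kept their sign, as did 769 of 784 values of single genes. Other pseudocounts and filters could not change the sign of a single gene here, so for single genes only the scalings bear on it. The 8 results that changed sign had main log2 ratios of at most 0.06 in size. Of the values of single genes, 82 of 784 moved by at least the distance from the middle to the edge of the gene's counting interval. Of the medians by group, 21 of 128 moved by at least the median of that distance over the 56 genes.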
